A study of Mus musculus with 9 samples.

Results

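The genes described here belong to the eicosanoid pathway, and they were taken by name: Pla2g4a, Pla2g5, Ptgs2, Hpgds, Ltc4s, Ptger3 and Ptger4. All 7 were present among the 757 genes of the deposited nCounter table. Eicosanoids are short-lived lipid signals made from arachidonic acid. Phospholipases release the acid from membranes, cyclooxygenases turn it into the common precursor of prostaglandins and thromboxane, and lipoxygenases open the separate branch to leukotrienes. Terminal synthases then set which product a cell makes, and the products act on G protein-coupled receptors of neighbouring cells. In the brain, microglia carry parts of this machinery, and prostaglandin E2 and prostaglandin D2 are classical mediators of fever, pain and inflammation.

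The 9 samples were labelled microglia and came from male mice, with 3 samples and 3 animals each for Sham, TIA 24h and TIA 3d. TIA stands for transient ischemic attack, modelled here by a filament that closed the middle cerebral artery for 5 min. Samples were collected 24 h or 3 d later. Sham mice went through the same surgery without the filament, and the time of their sampling is not given in the labels. The methods name wild-type C57BL6/J mice and an age of 10 to 12 weeks for the study, without naming this cohort. All groups shared the isolation: papain digestion, an actinomycin D supplement that blocks new transcription, a Percoll gradient, and a sort for live CD45+CD11b+ cells, a gate that macrophages and blood myeloid cells can also pass.

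The libraries differed in depth and in the RNA level of microglial markers, which bears on every comparison below. Whole counts recovered from the table summed to between 6560 and 62883 per lane, with all TIA 3d lanes above the other lanes. The median gene had 8 to 22 counts. The mean log2 level of 12 measured microglial markers, P2ry12, Tmem119, Cx3cr1 and Csf1r among them, ran from 5.07 to 8.77 among Sham samples, from 4.56 to 6.24 among TIA 24h samples and from 8.46 to 8.62 among TIA 3d samples. The lowest were TIA 24h replicate 3 (4.56), Sham replicate 3 (5.07) and TIA 24h replicate 2 (5.59). P2ry12 had 12 counts in TIA 24h replicate 3 and 13 in Sham replicate 3, compared with 742 in Sham replicate 1 and 438 to 652 for TIA 3d, so that these libraries stood apart from others that carry the same label. The summed normalized counts of 10 oligodendrocyte markers were 905, 338 and 666 for TIA 24h, 127, 870 and 189 for Sham, and 154, 127 and 94.8 for TIA 3d. In these bulk samples, fewer microglia and less RNA of a gene per microglial cell cannot be told apart.

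Of the 7 genes, Hpgds alone passed the threshold in the unweighted limma fit to the deposited values of all samples, and that call was lost when any 1 of the 6 samples compared was left out. Hpgds, the hematopoietic synthase of prostaglandin D2, rose 5.88-fold from TIA 24h to TIA 3d (95% confidence interval 1.96 to 17.6, n = 3 per group). Whether its TIA 24h counts of 15, 13 and 6 lie above background was not tested. The threshold was an adjusted p of 0.05 in limma, a linear model fitted to the log2 values of all genes, with Benjamini-Hochberg adjustment over the table. At TIA 24h against Sham 0 of the 7 genes passed, where 0% of all genes did. At TIA 3d against Sham the count was again 0 of 7 (0% of all genes), and so it was in the F test over the 3 groups (0%). Between the time points 1 of 7 passed, and 19.2% of all genes did, so that the share among these genes was close to that of the table. With counts scaled to the lane total, which put the median of all genes at -1.19, Pla2g4a (-1.38), Pla2g5 (-1.26) and Ptger3 (-2.11) also passed between the time points (limma adjusted p = 0.0367, 0.047 and 0.0231), and Ptger3 passed with array weights (-1.20, adjusted p = 0.0337). None of the 7 (0) passed there in voom, in an ordinary linear model, after quantile normalization or with lane depth in the model.

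**Figure D1:**
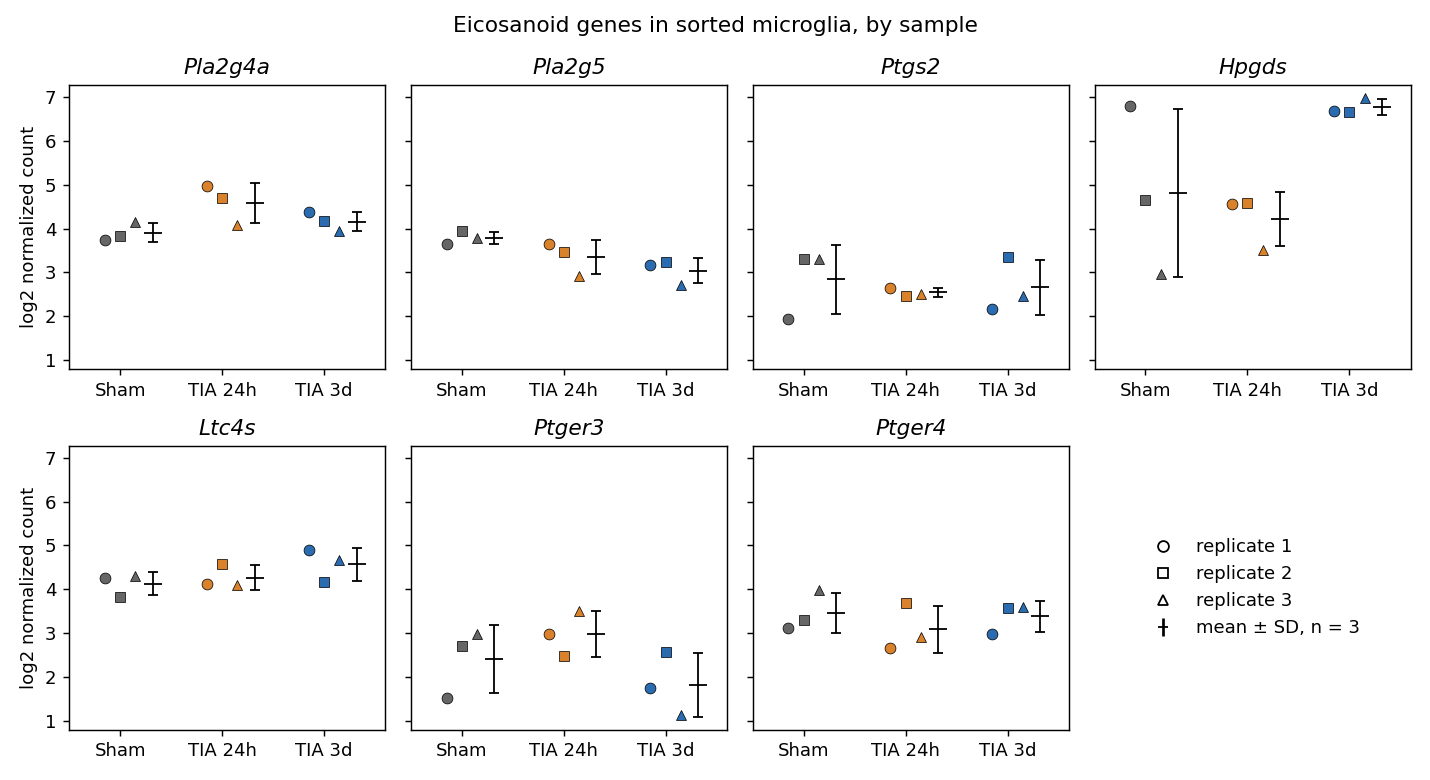
Deposited log2 normalized counts of the 7 genes (y axis) in each sample of Sham, TIA 24h and TIA 3d (x axis). Points are samples, marker shapes give the replicate number, and bars give the mean ± SD of 3 samples. Hpgds at TIA 3d lies between 6.67 and 6.98, above all TIA 24h samples, and the other genes overlap between TIA 3d and TIA 24h.

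The first step of the pathway was represented by a pair of phospholipases. Pla2g4a encodes cytosolic phospholipase A2, which releases arachidonic acid from membrane lipids when calcium rises. The Sham samples had log2 normalized counts of 3.75, 3.83 and 4.14, the TIA 24h samples of 4.98, 4.69 and 4.09, and the TIA 3d samples of 4.38, 4.16 and 3.94. Sham replicate 3 lay above TIA 24h replicate 3, so the groups overlapped, although the highest values of the gene were those of TIA 24h replicates 1 and 2. The difference at TIA 24h against Sham was 0.68 on the log2 scale (SE 0.40, limma adjusted p = 0.722). Its 95% interval, -0.17 to 1.54, leaves room for no change and for a 2.90-fold rise. At TIA 3d the difference from Sham was 0.25 (adjusted p = 0.725 in limma), and that from TIA 24h was -0.43 (adjusted p = 0.427 in limma).

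Pla2g5 encodes a secreted phospholipase A2 of low molecular weight. Its log2 values for Sham were 3.64, 3.93 and 3.78, followed by 3.66, 3.47 and 2.92 for TIA 24h and by 3.17, 3.23 and 2.72 for TIA 3d. All TIA 3d samples lay below all Sham samples, the only such separation from Sham among the 7 genes. Groups that did not overlap in this comparison made up 24.2% of all genes. The difference was -0.75 (SE 0.39, 95% interval -1.59 to 0.09) and did not pass in limma (adjusted p = 0.29). Unscaled, Sham had 13, 14 and 7 counts and TIA 3d had 16, 11 and 12, which overlapped in lanes of unequal depth. Per 10000 counts of a lane the groups were apart, with 5.08, 9.40 and 10.7 for Sham and 3.10, 3.77 and 1.91 for TIA 3d. On that scale Pla2g5 differed by -1.50 (limma adjusted p = 0.0966), where the median of all genes was -0.77. The share of all genes with groups apart on that scale was not computed. The difference between the time points was -0.31 (adjusted p = 0.571 in limma), and it changed sign to 0.027 after median centring and to 0.23 after quantile normalization.

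Annexin A1, encoded by Anxa1 and known as a brake on phospholipase A2 and on leukocyte entry, was the only other gene found among 55 further pathway genes that were looked for. That list held lipoxygenases, prostaglandin E synthases, leukotriene enzymes and the remaining receptors. Anxa1 had log2 values of 2.75, 4.13 and 4.43 among Sham samples, 3.46, 4.06 and 3.92 among TIA 24h samples, and 1.75, 3.23 and 1.94 among TIA 3d samples. The TIA 3d samples were all below the TIA 24h samples, in a comparison where 48.3% of all genes had groups that did not overlap. Its difference of -1.51 between the time points (SE 0.53) did not pass (adjusted p = 0.0597 in limma), nor did that of -1.46 from Sham (adjusted p = 0.167 in limma). Between the time points it passed with lane-total scaling (-2.45, adjusted p = 0.0157), in voom (-1.57, adjusted p = 0.0488), with array weights (-1.78, adjusted p = 0.00618), with a replicate block (adjusted p = 0.0427), when centred on microglial markers (-4.59, adjusted p = 0.0043, where the median of all genes was -3.33) and without Sham replicate 1, Sham replicate 3 or TIA 3d replicate 2 (adjusted p = 0.0289, 0.0397 and 0.0438 in limma). From Sham it passed with array weights (-1.92, adjusted p = 0.00769) and without Sham replicate 1 (-1.97, adjusted p = 0.0272 in limma). The TIA 24h lanes had 7, 9 and 8 counts and the TIA 3d lanes 6, 11 and 7, and these overlapped.

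Ptgs2 encodes cyclooxygenase-2, the inducible enzyme that nonsteroidal anti-inflammatory drugs block. It was read from very few counts: 4, 9 and 5 for Sham, 4, 3 and 3 for TIA 24h, and 8, 12 and 10 for TIA 3d. A count of 4 has an exact 95% Poisson interval of 1.09 to 10.2, which covers counting error only and spans the counts of most lanes. On the deposited scale the Sham samples stood at 1.94, 3.30 and 3.30, the TIA 24h samples at 2.66, 2.47 and 2.51, and the TIA 3d samples at 2.17, 3.36 and 2.45. The TIA 24h samples fell within the range of the Sham samples, and the TIA 3d samples did so but for replicate 2, which was slightly above the highest of them. Relative to Sham, Ptgs2 differed by -0.30 at TIA 24h (95% interval -1.33 to 0.73) and by -0.18 at TIA 3d (-1.22 to 0.85), and it differed by 0.12 between the time points (-0.92 to 1.15). The adjusted p values in limma were 0.88, 0.845 and 0.879. A change of Ptgs2 was not detectable at this depth, and whether counts this low lie above the background of a lane was not tested, since no control probes were analysed here. The intervals include both a 1.66-fold rise and a fall to 0.398 of the Sham level at TIA 24h.

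The regulatory sequence at the start of Ptgs2 is shown because this gene is the inducible step of the pathway. RefSeq promoter sequences of GRCm38.p6, from 250 bases before to 50 bases after each annotated start, were found for all 7 genes. They were searched on both strands for letters of known binding motifs. The palindrome TTGCGCAA, bound by C/EBP factors, lay 69 to 62 bases before the Ptgs2 start and was held by 0.183% of 32851 promoters. The core ACGTCA of a cAMP response element lay at bases 13 to 18 after the start and was held by 7.51% of promoters. Both positions count from the annotated start, and other starts of transcription were not considered. Capitals mark these motifs in the stretches below, at chr1:150099951-150099980 and chr1:150100031-150100060 on the plus strand. A match describes letters and not a bound site. The NF-kB motif, read as GGG and TTTCC with any 2 bases between them, was in 0 of these 7 genes' promoters and in 1.63% of all, which says nothing about the factor beyond this window.
Ptgs2, C/EBP letters: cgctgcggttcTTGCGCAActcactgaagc
Ptgs2, cAMP response element letters: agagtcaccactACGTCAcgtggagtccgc

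Known upstream signals of Ptgs2 were also measured. Of 21 such genes, among them interleukin 1, tumour necrosis factor, Toll-like receptors and NF-kB subunits, 18 were in the table. At TIA 3d against TIA 24h, 8 of the 18 rose (Il1a, Nfkb2, Rela, Nfkbia, Egr1, Fos, Jun and Atf3), 1 (Il1b) fell and 9 did not pass, where 11.6% of all genes rose and 7.53% fell, with a median log2 difference of 1.28 over the list and -0.25 over all genes. That split of all genes, 88 higher and 57 lower, depended on the scaling. It was 34 and 310 with lane-total scaling, 16 and 81 in voom, and 123 and 21 after median centring. In a fit lacking replicate 2 of TIA 24h, 0 genes of the table passed, so every call in the list was lost. Dropping replicate 3 of TIA 24h, replicate 1 of TIA 3d or replicate 3 of TIA 3d had the same result. So did the ordinary linear model, and so did a model that included lane depth. Il1b, which encodes interleukin 1 beta, differed by -1.77 (SE 0.58, limma adjusted p = 0.0494), with 19, 8 and 17 counts for TIA 24h and 24, 3 and 19 for TIA 3d. Against Sham, 0 of the 18 passed at TIA 24h and 0 at TIA 3d, with medians of -0.22 and 1.10. All of the 12 microglial markers also rose between the time points, 12 of 12 past the threshold. The part of microglial content in the list's rise was not tested.

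Hpgds was the most strongly varying gene of the group. Its product converts the cyclooxygenase product prostaglandin H2 to prostaglandin D2 in macrophages, microglia and mast cells. Log2 values were 6.80, 4.65 and 2.97 for Sham, 4.56, 4.59 and 3.51 for TIA 24h, and 6.68, 6.67 and 6.98 for TIA 3d. The Sham values rested on 116, 23 and 4 counts, the TIA 24h values on 15, 13 and 6, and the TIA 3d values on 182, 119 and 230. The TIA 3d samples were close together and all above TIA 24h, whereas the Sham samples spanned nearly the whole range of the other groups. The Sham mean was 4.81 ± 1.92 (SD, n = 3), the TIA 24h mean 4.22 ± 0.62 and the TIA 3d mean 6.77 ± 0.18.

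The rise of Hpgds between the time points was 2.55 on the log2 scale (SE 0.73, limma adjusted p = 0.0379). Of the 7 genes, 1 had groups that did not overlap in this comparison, against 48.3% of all genes, and 2 had an unadjusted p under 0.05 in limma, against 40.2%. At TIA 24h, Hpgds differed from Sham by -0.59 (95% interval -2.17 to 0.99, adjusted p = 0.843 in limma). This difference became 0.41 without Sham replicate 1 and -1.51 without Sham replicate 3, neither of which passed (limma adjusted p = 0.975 and 0.209). None of the 7 genes had groups apart in that comparison (9.78% of all genes) or an unadjusted p under 0.05 (7.53%). At TIA 3d, Hpgds was 1.97 above Sham (95% interval 0.38 to 3.55), with an unadjusted limma p of 0.0187, and did not pass (adjusted p = 0.168). It was 1 of 7 under that unadjusted limit, and 19.6% of all genes were. Without Sham replicate 1 the TIA 3d difference from Sham was 2.96 and passed (limma adjusted p = 0.00965), and without Sham replicate 3 it was 1.05 (adjusted p = 0.501).

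**Figure D2:**
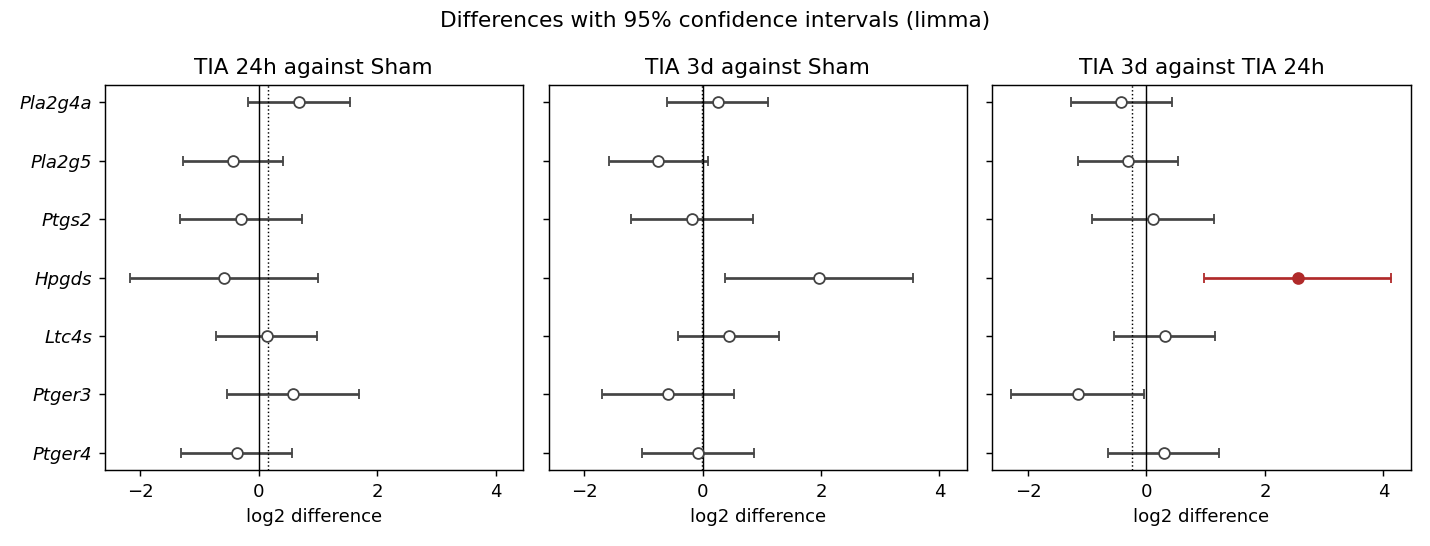
Log2 differences of the 7 genes (x axis) with 95% confidence intervals from limma, in 3 panels, each time point against Sham and TIA 3d against TIA 24h. The filled red point is past an adjusted p of 0.05, open points are not, and the dotted line is the median of all genes. Hpgds at TIA 3d against TIA 24h, at 2.55, is the filled point.

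The call for Hpgds rested on each of the 6 samples compared. Left out one at a time, TIA 24h replicates 1, 2 and 3 gave adjusted p values in limma of 0.059, 0.0768 and 0.115, and TIA 3d replicates 1, 2 and 3 gave 0.0992, 0.0567 and 0.108, with differences of 2.20 to 2.74. The call was also lost after quantile normalization (1.84, adjusted p = 0.165), in voom on the recovered counts (2.46, adjusted p = 0.12) and in an ordinary linear model (2.55, adjusted p = 0.131). With counts scaled to the lane total Hpgds still rose, by 1.61 (adjusted p = 0.0497 in limma). Per 10000 counts of a lane Hpgds had 45.3, 15.4 and 6.10 counts among Sham samples, 13.7, 16.4 and 8.28 among TIA 24h samples, and 35.3, 40.8 and 36.6 among TIA 3d samples. With the total count as a covariate, the difference was -0.98 (adjusted p = 0.973 in limma). All TIA 3d lanes were the deepest, so that depth and time point cannot be told apart there.

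**Figure D3:**
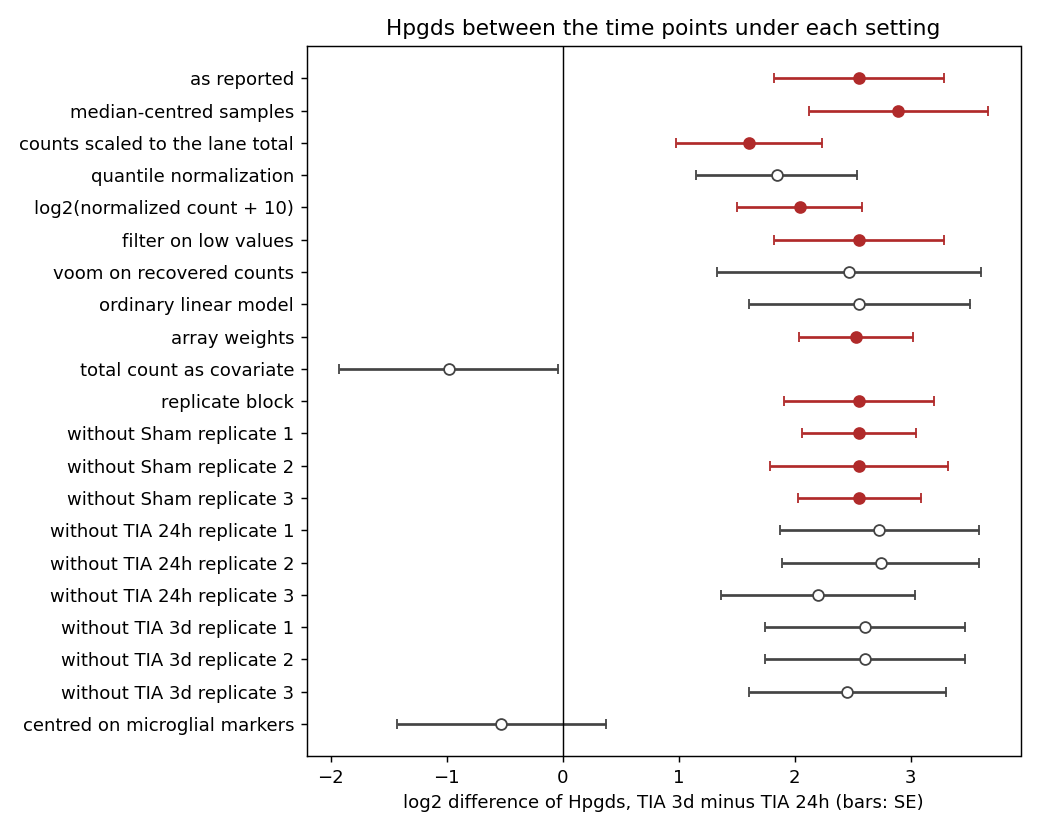
Log2 difference of Hpgds between TIA 3d and TIA 24h (x axis, bars give the SE) as reported and under each alternative setting (y axis). Filled red points are past an adjusted p of 0.05. Left-out samples give 2.20 to 2.74, and the sign turns with the total count as a covariate (-0.98) and after centring on microglial markers (-0.53).

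Microglial markers moved with Hpgds from lane to lane. Summed normalized counts of the 12 markers ranged from 434 to 6244 for Sham, from 367 to 1117 for TIA 24h and from 5620 to 6761 for TIA 3d. Relative to the mean log2 level of the markers, Hpgds stood at -1.97, -2.50 and -2.10 for Sham, at -1.68, -1.01 and -1.06 for TIA 24h, and at -1.89, -1.96 and -1.48 for TIA 3d. On this scale TIA 24h was the highest group, and its samples lay above all Sham samples but overlapped TIA 3d. In a fit with every sample centred on these markers, a scaling chosen after the data were seen, Hpgds changed by -0.53 between the time points (SE 0.90, adjusted p = 0.58 in limma) and by 0.94 at TIA 24h against Sham (adjusted p = 0.357), where the medians of all genes were -3.33 and 1.68. Beside the 2.55 of Hpgds, the median difference of the markers between the time points was 3.08, and the part of microglial content in the rise was not tested.

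**Figure D4:**
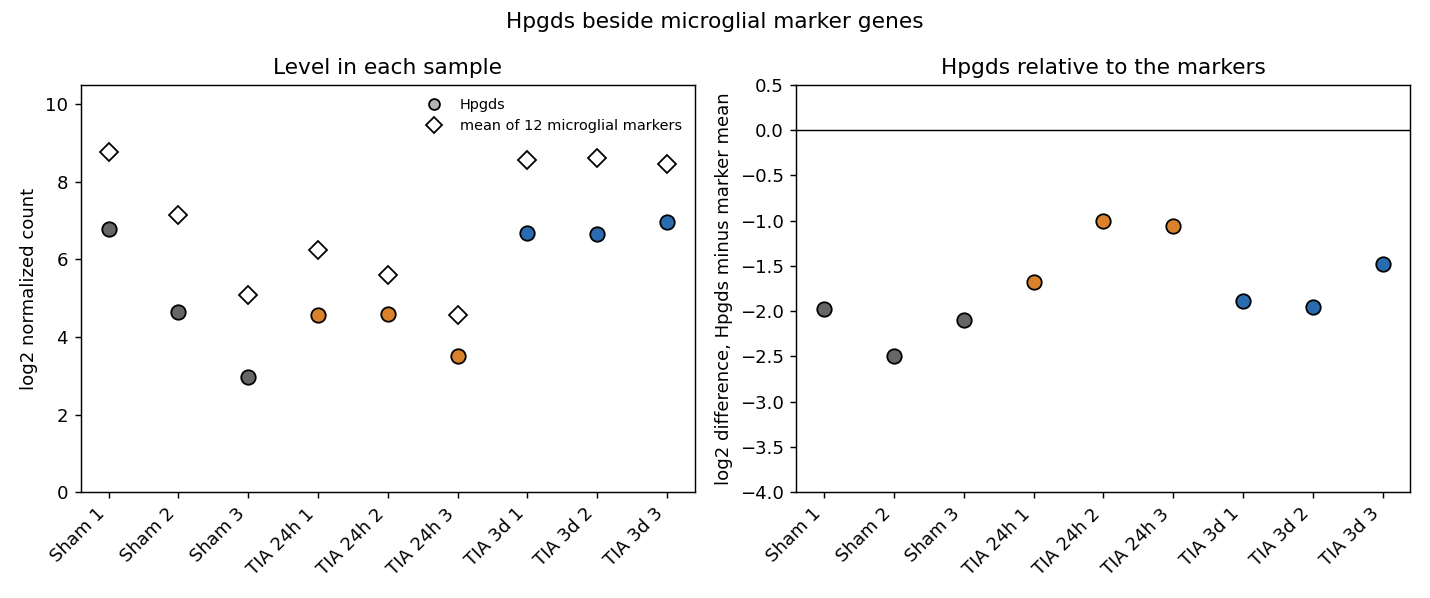
Left, log2 normalized counts (y axis) of Hpgds (circles) and the mean of 12 microglial markers (diamonds) in each sample (x axis). Right, Hpgds minus the marker mean in log2 units. Hpgds ran from 2.97 to 6.98 on the left, and its distance to the marker mean stayed between -2.50 and -1.01 on the right.

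Mast cells, which also make prostaglandin D2 and leukotriene C4, were looked for with 7 markers, of which 5 were measured. Their summed normalized counts were 29.7 to 72.7 for Sham, 41.0 to 54.9 for TIA 24h and 19.1 to 28.2 for TIA 3d, with the TIA 3d samples below all others, and 2 of the 5 fell between the time points. Before the lane factors, the median count of these markers was 5, 6 and 6 for TIA 24h and 7, 6 and 7 for TIA 3d. For 6 markers of blood monocytes and neutrophils the sums were 120 to 155, 147 to 150 and 98.7 to 150 in the same order. Of 6 border macrophage markers only Cd163 was measured, at 15.3 to 37.3, 20.8 to 31.4 and 16.4 to 20.5 normalized counts. Among markers of other cells, those that fell between the time points were 6 of 10 oligodendrocyte genes, 1 of 17 neuronal, 1 of 5 astrocyte, 2 of 6 endothelial and 2 of 12 of T, NK and B cells, beside the 7.53% of all genes, and their part in the results was not tested. These falls, and those of the mast cell markers, no longer passed once replicate 2 of TIA 24h was removed, where 0 genes of the table did. Removing only replicate 3 of TIA 24h, only replicate 1 of TIA 3d or only replicate 3 of TIA 3d also left 0. The lowest count in the table was 1, the smallest that the recovery of counts can give, so detection of each marker was not tested.

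Ltc4s encodes leukotriene C4 synthase, which joins leukotriene A4 to glutathione and opens the cysteinyl leukotriene branch. It was the steadiest of the 7 genes, with a SD of 0.33 on the log2 scale over the 9 samples. The Sham samples stood at 4.26, 3.83 and 4.30, the TIA 24h samples at 4.12, 4.59 and 4.09, and the TIA 3d samples at 4.90, 4.16 and 4.66, and all groups overlapped. Relative to Sham, Ltc4s differed by 0.14 at TIA 24h (95% interval -0.71 to 0.99) and by 0.44 at TIA 3d (-0.41 to 1.30), and the difference was 0.31 between the time points (-0.54 to 1.16). None passed in limma (adjusted p = 0.957, 0.516 and 0.582). The signs depended on the scaling: median centring gave -0.045 at TIA 24h against Sham, and scaling to the lane total gave -0.31 at TIA 3d against Sham and -0.64 between the time points.

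Hpgds and Ltc4s are shown with the ETS letters AGGAAGTG, the type bound by PU.1, the factor that sets myeloid identity, since both are synthases of myeloid cells. These letters lay 48 to 41 bases before the Hpgds start and 117 to 110 bases before the Ltc4s start. They were held by 4.07% of the 32851 promoters, and by 1 further gene of the 7, Pla2g4a, on the opposite strand before 1 of its 2 annotated starts. Both stretches are on the minus strand of GRCm38.p6, at chr6:65144760-65144789 for Hpgds and chr11:50238631-50238660 for Ltc4s, with the motif in capitals. Of the 3 genes with these letters, Hpgds varied widely over the samples (SD 1.54 on the log2 scale). Ltc4s (0.33) and Pla2g4a (0.40) varied less.
Hpgds, ETS letters: cttttaggtggAGGAAGTGgcctctggctg
Ltc4s, ETS letters: gaacaactggaAGGAAGTGgtcaagctgtc

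A pair of prostaglandin E2 receptors was measured. Ptger3 encodes EP3, which lowers cAMP through an inhibitory G protein, and it had 3, 6 and 4 counts for Sham, 5, 3 and 6 for TIA 24h, and 6, 7 and 4 for TIA 3d. Log2 values were 1.52, 2.71 and 2.97 for Sham, 2.98, 2.47 and 3.51 for TIA 24h, and 1.75, 2.58 and 1.13 for TIA 3d. TIA 3d replicate 2 lay above TIA 24h replicate 2, so the groups overlapped on both scales. The difference between the time points was -1.16 (95% interval -2.28 to -0.05) with an unadjusted limma p of 0.042, and it did not pass (adjusted p = 0.113). Against Sham the differences were 0.58 at TIA 24h and -0.58 at TIA 3d (limma adjusted p = 0.783 and 0.516). The lane factors ranged over 3.58-fold, which is more than the spread of these counts, and whether they lie above background was not tested either.

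Ptger4 encodes EP4, which raises cAMP and is the receptor through which prostaglandin E2 restrains microglial cytokine release. It stood at 3.11, 3.30 and 3.97 for Sham, at 2.66, 3.69 and 2.92 for TIA 24h, and at 2.97, 3.58 and 3.59 for TIA 3d, with every pair of groups overlapping. The Sham lanes had 9, 9 and 8 counts, the TIA 24h lanes 4, 7 and 4, and the TIA 3d lanes 14, 14 and 22. Relative to Sham, Ptger4 differed by -0.37 at TIA 24h (95% interval -1.31 to 0.57) and by -0.08 at TIA 3d (-1.02 to 0.86), and the difference was 0.29 between the time points (-0.65 to 1.23). None passed in limma (adjusted p = 0.837, 0.934 and 0.644). The intervals of Ptger4 still allow a 2.35-fold rise between the time points.

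Over the 7 genes, the median difference from Sham was -0.30 at TIA 24h and -0.08 at TIA 3d, and it was 0.12 between the time points, where the medians of all genes were 0.15, -0.01 and -0.25. By sign, 3 genes were above and 4 below Sham at TIA 24h, and the same numbers held at TIA 3d. Comparisons with Sham share the Sham samples. As a description, the genes whose log2 values ran closest to 6 of the members over the 9 samples were found by the root mean square difference after each gene's mean was removed. For Hpgds these were Lyn, a kinase of myeloid cells (0.29), and Mpeg1, a pore-forming protein of macrophages (0.30), against a SD of 1.54 for Hpgds itself. For Ptger3 they were Tgm1 (0.19) and St8sia6 (0.20). The closest to Ltc4s were Dst (0.16) and Birc3 (0.22), to Pla2g4a Vps4b (0.23) and Tnfrsf12a (0.29), to Ptgs2 Chst8 (0.29) and Calcoco2 (0.35), and to Ptger4 Ets2 (0.24) and Kdm4b (0.27). Differences of 0.16 to 0.35 are small beside the SD of Hpgds, but for the other genes, whose SD was 0.33 to 0.78, they are a larger part of it.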

How the data were processed

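RNA of sorted microglia (65 ng per sample) was hybridised to the nCounter Mouse Neuroinflammation code set. The authors deposited log2 values of normalized counts. Per the methods, ROSALIND divided the counts of a lane by the geometric mean of housekeeping probes selected by geNorm. Which genes below the negative controls were removed from the table, and any genome build, are not given in the sources used here. Within 0.01 counts, 100% of the values of each lane were whole multiples of 1 step, which gave back the counts (6560 to 62883 per lane). The lowest was 1, the smallest count that this recovery can give, and background could not be read from control probes.

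Values were fitted in limma 3.58.1 (R 4.3.3) over 757 genes and 9 samples, with a mean per group, eBayes (prior df 7.231) and two-sided contrasts, and the Benjamini-Hochberg adjustment ran over the whole table. Poisson intervals (95%) used SciPy 1.17.1. Members, lists and motifs were chosen with earlier results of these data known. By the naming rule, the text names all members, each measured further pathway gene and the 2 genes closest to each member, which are not reported here for Pla2g5. Upstream signals of Ptgs2 past the threshold were named after their values were seen, and the centring on markers was chosen after seeing the data. The labels give 3 animals and 3 samples per group without tying each sample to 1 animal, so p values measure the spread between these samples. Apart from Hpgds relative to the marker mean, which was read between samples, levels were not compared between genes, whose probes differ in efficiency. Alternatives were median centring, lane-total scaling, quantile normalization, a pseudocount of 10, a filter at the 0.25 quantile, voom, an ordinary linear model, array weights, total count as a covariate, a replicate block, leaving out each sample, and centring on 12 microglial markers. Symbols matched RefSeq GRCm38.p6 for 7 of 7 members.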

Additional observations from a re-analysis of the deposited data

Results flagged for a closer look

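Hpgds was flagged for its change between the time points, although it passed against Sham at neither of them (limma adjusted p = 0.843 and 0.168). The contrast of TIA 3d with TIA 24h, in which Sham cancels, gave 2.55 on the log2 scale (limma adjusted p = 0.0379). All 3 TIA 3d samples lay above all 3 TIA 24h samples, where groups did not overlap for 48.3% of all genes. The call was lost when any 1 of the 6 samples compared was left out (limma adjusted p = 0.0567 to 0.115). With the total count as a covariate the difference was -0.98. The 12 microglial markers, of which 12 rose in the same contrast of the reported fit with a median difference of 3.08, moved with it. Their calls were also lost when some single samples were left out, and their part in the result was not tested. No test for an outlying value within a group was made, since each group has 3 samples.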

How the results depend on the processing

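Depth limits these results, since 6 of the 7 genes had at most 53 counts in any lane, and so does the scaling. The number of the 7 genes past the threshold at TIA 3d against TIA 24h was 1, and it was 4 with counts scaled to the lane total (Hpgds higher, Pla2g4a, Pla2g5 and Ptger3 lower, where the median of all genes was -1.19), 2 with array weights (Hpgds and Ptger3), 6 when centred on microglial markers (all but Hpgds, all lower, where the median of all genes was -3.33), and 0 after quantile normalization, in voom, with the total count as a covariate or in the ordinary linear model. Leaving out samples gave 0 to 1. At TIA 3d against Sham it was 0, but 1 (Hpgds) with array weights and 0 to 1 with samples left out. In the F test it was 0, but 1 with array weights, 3 when centred on microglial markers and 0 to 1 with samples left out. At TIA 24h against Sham it was 0 under every setting run.

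Over all 757 genes, 145 passed at TIA 3d against TIA 24h, 344 with lane-total scaling, 7 after quantile normalization, 0 in the ordinary linear model, 314 with array weights, 0 with the total count as a covariate, 597 when centred on microglial markers, all of them lower, 97 in voom and 0 to 226 with samples left out. At TIA 3d against Sham the number was 0, but 6 with the pseudocount, 1 with the filter, 174 with array weights, 1 with the replicate block and 0 to 84 with samples left out. At TIA 24h against Sham it was 0, but 1 after quantile normalization and 1 with array weights, and 57 genes had an unadjusted p under 0.05 in limma. In the F test it was 0, but 52 after median centring, 181 with lane-total scaling, 1 after quantile normalization, 43 with the pseudocount, 40 with the filter, 295 with array weights, 54 with the replicate block, 465 when centred on microglial markers and 0 to 136 with samples left out.

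The sign of differences turned under several settings, and of these that of Hpgds between the time points was called in the reported fit. With the total count as a covariate this included the differences of Hpgds and Anxa1 at TIA 3d, which were among the largest. Centring on microglial markers moved all genes, with median differences from Sham of 1.68 at TIA 24h and -1.56 at TIA 3d, and of -3.33 between the time points, so that the signs below include this common shift. With it, TIA 24h against Sham became 1.23 for Ptgs2, 0.94 for Hpgds, 1.10 for Pla2g5 and 1.16 for Ptger4. TIA 3d against Sham became -1.11 for Ltc4s and -1.30 for Pla2g4a, and TIA 3d against TIA 24h became -2.97 for Ptgs2, -0.53 for Hpgds, -2.78 for Ltc4s and -2.79 for Ptger4. With the total count as a covariate, TIA 24h against Sham became 0.39 for Hpgds and -0.58 for Anxa1. TIA 3d against Sham became 0.94 for Ptgs2, -0.60 for Hpgds, 0.82 for Ptger3, 0.65 for Ptger4 and 0.17 for Anxa1, and TIA 3d against TIA 24h became -0.98 for Hpgds, 0.77 for Ptger3 and 0.75 for Anxa1. With lane-total scaling, TIA 3d against Sham became -0.31 for Ltc4s and -0.50 for Pla2g4a, and TIA 3d against TIA 24h became -0.83 for Ptgs2, -0.64 for Ltc4s and -0.66 for Ptger4. After median centring, TIA 24h against Sham became -0.045 for Ltc4s and -0.14 for Anxa1, Ptger4 at TIA 3d against Sham 0.079 and Pla2g5 between the time points 0.027. After quantile normalization, TIA 24h against Sham became -0.056 for Ltc4s and -0.28 for Anxa1, TIA 3d against Sham 0.058 for Ptgs2 and 0.087 for Ptger4, and Pla2g5 between the time points 0.23. The pseudocount (-0.014) and array weights (-0.14) turned Anxa1 at TIA 24h against Sham, and voom (-0.069) and array weights (-0.090) turned Ptgs2 between the time points. The causes were not tested.

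With samples left out, Hpgds at TIA 24h against Sham ran from -1.51 to 0.41, Ltc4s from -0.025 to 0.22 and Anxa1 from -0.47 to 0.38. At TIA 3d against Sham, Ptgs2 ran from -0.64 to 0.062 and Ptger4 from -0.25 to 0.18, and between the time points Ptgs2 ran from -0.23 to 0.36.

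Whether the replicate numbers pair the samples was not settled. Deviations of same-numbered samples correlated across genes with an r of -0.24 to 0.27, and 5 of 9 pairs were over 0.1. For differently numbered samples r ran from -0.37 to 0.31. With 3 samples per group, deviations from a group mean depend on each other, so this check cannot exclude pairing. With the replicate block Hpgds passed at TIA 3d against TIA 24h (2.55, limma adjusted p = 0.0263), as did Anxa1 (-1.51, adjusted p = 0.0427), and no other call among these 8 genes changed. The filter on low values removed Ptgs2 and Ptger3, which then have no value.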
